A study of Mus musculus with 9 samples.

Results

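The 49 genes described here are 25 genes of S phase, the part of the cell cycle in which DNA is copied, 21 genes of mitosis and the 3 D cyclins. They were listed by name for their known roles, with earlier results of these data known, and all 49 of the 35675 genes with summed counts were among the 15714 genes tested. Fibroblasts of mouse embryos (MEFs) with the Dmdmdx mutation in the dystrophin gene, used to model Duchenne muscular dystrophy, were studied by sequencing. The 9 libraries of polyadenylated RNA formed 3 groups of 3, and the series concerns the reprogramming of these fibroblasts into myogenic progenitors. The first group had MyoD, the transcription factor that starts the skeletal muscle programme, together with small molecules abbreviated F/R/C and not named further in the labels (here F/R/C). The second had MyoD alone (here MyoD), and the third had no treatment (here MEF). All 3 groups carried Dmdmdx, so no group had intact dystrophin, and the labels used here do not give how MyoD was delivered, the doses or the times. Whether replicate libraries stem from distinct cultures or mice is not stated, and p-values therefore reflect the spread of these libraries alone, which may be technical.

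Dividing cells copy their DNA with a helicase built from the MCM proteins, which Cdc6 and Cdt1 load onto origins before S phase, and then separate the copies in mitosis under Cdk1 and its cyclins. The D cyclins answer to growth signals and start the cycle by releasing E2F transcription factors from the retinoblastoma protein, and E2F factors then raise the genes of S phase, while the DREAM complex holds S phase and mitosis genes low in resting cells. In skeletal muscle, myoblasts leave the cell cycle for good as they fuse and build sarcomeres, and cyclin D3 and the inhibitor p21 are known to stay high in muscle cells that have left it.

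The S phase and mitosis lists differ in the sequence of their promoters, which are shown here because they describe the 2 lists without use of any expression value. RefSeq promoters (GRCm38.p6), the 250 bases before and the 50 after a start of transcription, were matched by symbol for 37 of the 49 genes, 20 of S phase, 16 of mitosis and 1 D cyclin. An E2F element (TTGGCGC, or with other middle bases TTCGCGC, or else TTCCCGC, or lastly TTGCCGC, each on either strand) was found in 13 of 20 S phase genes (65%) and 3 of 16 mitosis genes (18.8%), against 10.9% of the 27025 genes with a promoter in the table. A CHR element (TTTGAA or TTCGAA on either strand), the element that the DREAM complex reads in mitosis genes, was found in 6 of 20 S phase genes (30%) and 12 of 16 mitosis genes (75%), against 21.7% of all genes with a promoter. Each of the 12 mitosis genes and each of the 6 S phase genes with a CHR element also held a CCAAT box on either strand. This pair was found in 8.61% of all genes with a promoter. The CCAAT box itself was common in both lists, at 75% of S phase genes and 87.5% of mitosis genes, against 41.1% of all genes with a promoter. A gene with several promoters was counted when any of them held the element. These matches describe letters in a window and are not measured binding. In the promoters of the helicase subunit gene Mcm6 (chr1:128359656-128359955, minus strand), the helicase loader gene Cdt1 (chr8:122567765-122568064, plus strand), the E2F genes E2f2 (chr4:136172024-136172323, plus strand) and E2f8 (chr7:48881547-48881846, minus strand) and the mitosis kinase genes Cdk1 (chr10:69352863-69353162, minus strand) and Plk1 (chr7:122159185-122159484, plus strand), capitals mark E2F and CHR elements. E2f2 and E2f8 were chosen after their values were seen. Mcm6 held 5 E2F matches, some of which overlap, and no CHR element, Cdk1 held 2 of each, Plk1 held 1 CHR element and no E2F element, E2f8 held 1 of each, and Cdt1 and the E2f2 promoter shown held 2 and 1 E2F elements and no CHR element. The table has 2 promoters for E2f2, and the other holds 1 CHR element and no E2F element.
Mcm6: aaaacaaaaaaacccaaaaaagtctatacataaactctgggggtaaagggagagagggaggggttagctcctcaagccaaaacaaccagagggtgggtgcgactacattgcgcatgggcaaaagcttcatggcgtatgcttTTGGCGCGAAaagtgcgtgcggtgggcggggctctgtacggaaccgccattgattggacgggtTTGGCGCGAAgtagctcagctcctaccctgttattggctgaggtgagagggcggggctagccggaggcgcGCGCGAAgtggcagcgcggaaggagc
Cdt1: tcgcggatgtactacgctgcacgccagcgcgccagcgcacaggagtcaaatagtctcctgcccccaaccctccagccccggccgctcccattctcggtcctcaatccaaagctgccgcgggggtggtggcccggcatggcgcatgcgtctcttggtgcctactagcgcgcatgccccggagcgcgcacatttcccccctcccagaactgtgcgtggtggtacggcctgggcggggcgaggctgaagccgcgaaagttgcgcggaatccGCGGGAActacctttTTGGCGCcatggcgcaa
E2f2: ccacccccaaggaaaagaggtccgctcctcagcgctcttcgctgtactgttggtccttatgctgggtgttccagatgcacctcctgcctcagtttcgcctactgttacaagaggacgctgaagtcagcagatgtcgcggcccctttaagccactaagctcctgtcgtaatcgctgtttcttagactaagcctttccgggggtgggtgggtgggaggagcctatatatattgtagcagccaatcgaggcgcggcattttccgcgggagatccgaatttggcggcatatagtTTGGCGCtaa
E2f8: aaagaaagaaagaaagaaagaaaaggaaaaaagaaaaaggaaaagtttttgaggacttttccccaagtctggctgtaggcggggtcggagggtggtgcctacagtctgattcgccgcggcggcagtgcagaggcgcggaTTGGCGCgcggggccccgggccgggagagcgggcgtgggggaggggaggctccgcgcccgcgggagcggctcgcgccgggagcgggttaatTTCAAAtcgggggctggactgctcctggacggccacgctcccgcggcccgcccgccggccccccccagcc
Cdk1: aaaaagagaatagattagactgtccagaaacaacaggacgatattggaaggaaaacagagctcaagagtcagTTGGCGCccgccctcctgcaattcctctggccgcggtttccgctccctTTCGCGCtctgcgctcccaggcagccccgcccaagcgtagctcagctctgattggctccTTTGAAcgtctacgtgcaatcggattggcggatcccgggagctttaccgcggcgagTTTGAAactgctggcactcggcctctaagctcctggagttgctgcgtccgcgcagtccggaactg
Plk1: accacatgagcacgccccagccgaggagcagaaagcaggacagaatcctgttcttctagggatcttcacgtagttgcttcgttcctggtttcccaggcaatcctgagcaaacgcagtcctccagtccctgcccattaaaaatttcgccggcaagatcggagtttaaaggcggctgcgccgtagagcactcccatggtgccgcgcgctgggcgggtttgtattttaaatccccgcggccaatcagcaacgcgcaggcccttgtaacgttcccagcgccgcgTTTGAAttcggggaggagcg

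The libraries held 21112071 to 24291056 estimated counts, and CPM values are counts brought to a common library size with TMM factors. A gene with no count could still have up to 3, or 0.113 to 0.144 CPM (counting error only). Myod1 itself had 6412, 6163 and 6874 counts in F/R/C libraries, 161, 239 and 394 counts in MyoD libraries and 56, 10 and 130 counts in MEF libraries. No gene passed the test between MyoD and MEF libraries in the main fit, though some alternative fits called genes. The 16 sarcomere markers together had 42525 to 60065 CPM in F/R/C libraries, 1251 to 3716 CPM in MyoD libraries, and 6.28, 6.28 and 698 CPM in MEF libraries, so that MEF replicate 3 carried muscle transcripts that MEF replicates 1 and 2 nearly lacked. All 12 fibroblast markers were detected in every library, with sums of 6871 to 10239 CPM in F/R/C, 13570 to 37802 CPM in MyoD and 21595 to 84739 CPM in MEF libraries, the highest in replicate 1 of each group. Macrophage markers (8 genes) summed to 11.0 to 18.4 CPM in F/R/C, 5.78 to 9.89 CPM in MyoD and 2.78 to 6.93 CPM in MEF libraries, and 4 of the 8 (Itgam, Cd68, Mrc1 and Csf1r) had enough counts to be tested. Of these, Itgam was higher against MEF (log2 fold change 5.32, adjusted p = 0.00044) and against MyoD (3.25, adjusted p = 0.00209) and Cd68 against MEF (1.37, adjusted p = 0.0154), while Ptprc, Adgre1, Fcgr1 and Tyrobp had 0 or 1 count in every F/R/C library. Endothelial markers (6 genes) summed to at most 3.33 CPM in any library. Mitochondrial genes took 1.54% to 3.09% of counts in F/R/C, 1.15% to 1.22% in MyoD and 0.819% to 1.10% in MEF libraries, and the part of these markers in the results was not tested.

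With F/R/C, the replication machinery and the mitosis genes mostly showed no change that passed the test, while 3 of the 6 regulators at the entry to S phase, E2f1, E2f2 and E2f8, and the 3 D cyclins changed. E2f2 and E2f8 rose 78.0-fold and 19.7-fold in F/R/C over MEF libraries, E2f1 fell 2.98-fold, Ccnd3 rose 3.28-fold, and Ccnd1 and Ccnd2 fell 7.13-fold and 4.40-fold. Against MEF, 6 of 25 S phase genes (24%) passed the test (edgeR's quasi-likelihood test, adjusted p under 0.05), 3 higher and 3 lower, where 37.6% of the 15714 genes tested passed it. None of the 21 mitosis genes passed it, and DESeq2 called 2 of them (and 43.1% of all genes). An unadjusted p under 0.05 was found for 1 of the 21, and for 7506 of the 15714 genes tested. Against MyoD, 6 of 25 S phase genes (24%) passed it, 4 higher and 2 lower, and 1 of 21 mitosis genes did, where 33.9% of all genes passed. The 3 D cyclins passed it in both comparisons, which share the F/R/C libraries. Libraries of F/R/C and MEF did not overlap for 7 S phase genes, 2 mitosis genes and 3 D cyclins (53.2% of all genes), and those of F/R/C and MyoD for 10, 2 and 3 (49.8% of all genes). In bulk RNA, fewer cycling cells and less RNA per cell cannot be told apart.

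**Figure D1:**
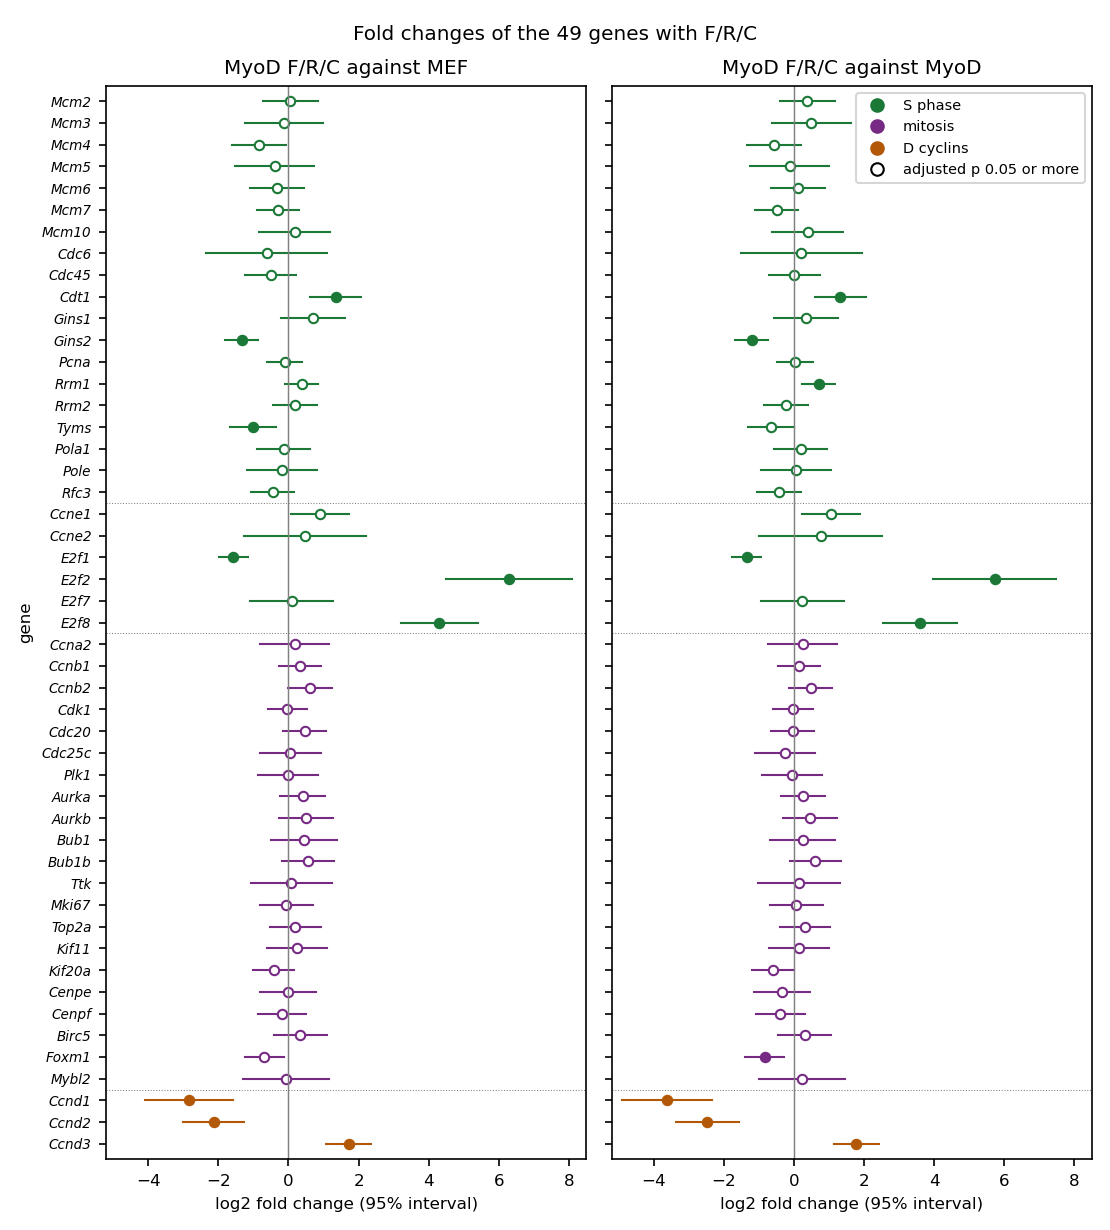
Log2 fold changes of the 49 genes in F/R/C against MEF libraries (left) and against MyoD libraries (right), with 95% intervals from the quasi-likelihood fit and n = 3 libraries a group. Filled points have an adjusted p under 0.05: E2f2 and E2f8 lie far to the right in both panels, Ccnd1 and Ccnd2 far to the left, and the mitosis genes between -0.83 and 0.62.

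Among the genes of origin licensing, no MCM gene passed the test in either comparison. Mcm2 had 31.6, 27.03 and 26.2 CPM in F/R/C libraries, 25.4, 21.3 and 18.7 CPM in MyoD libraries and 43.6, 22.7 and 15.5 CPM in MEF libraries. The MEF libraries alone spanned 15.5 to 43.6 CPM, so the F/R/C values lay inside the MEF range, although all 3 were above every MyoD value. Mcm6, another subunit, had 29.5, 22.8 and 31.2 CPM in F/R/C libraries, 27.6, 26.8 and 22.9 CPM in MyoD libraries and 55.2, 28.6 and 20.3 CPM in MEF libraries, again with MEF replicate 1 above all others and with overlapping groups. Mcm4 had 29.9, 29.1 and 28.6 CPM in F/R/C libraries, 50.5, 51.8 and 27.9 CPM in MyoD libraries and 70.7, 56.5 and 29.02 CPM in MEF libraries. Its F/R/C values were nearly equal, and the third MyoD and MEF libraries were as low as they were. The difference of Mcm4 from MEF did not pass the test (log2 fold change -0.83 ± 0.34 SE, adjusted p = 0.0849), but did without MEF replicate 3 (-1.17, adjusted p = 0.0152). Over the 19 genes of the replication machinery, log2 fold changes against MEF ran from -1.34 to 1.35 with a median of -0.19, where the median of all genes tested was -0.04. Cdc6, which loads the helicase together with Cdt1, had 4.24, 1.28 and 2.06 CPM in F/R/C libraries, 3.13, 1.85 and 1.59 CPM in MyoD libraries and 8.56, 1.97 and 1.20 CPM in MEF libraries. In both the F/R/C and MEF groups replicate 1 stood well above the other 2, and the 95% interval of the difference from MEF ran from -2.34 to 1.09 on the log2 scale.

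Cdt1, the partner of Cdc6 in helicase loading, was the replication gene that rose most. It had 18.7, 19.4 and 21.5 CPM in F/R/C libraries, 7.56, 8.42 and 7.84 CPM in MyoD libraries and 11.95, 6.32 and 5.12 CPM in MEF libraries. Every F/R/C library was above every other library, and MEF replicate 1 was the highest of the rest. Its log2 fold change was 1.35 ± 0.32 (SE, adjusted p = 0.0113) against MEF and 1.32 ± 0.32 (SE, adjusted p = 0.014) against MyoD. The call against MEF was lost without MEF replicate 2 (adjusted p = 0.0504), and that against MyoD with counts scaled from TPM (adjusted p = 0.0636). Gins2, a subunit of the GINS complex that completes the active helicase, moved the other way. Its values were 6.001, 5.65 and 5.09 CPM in F/R/C libraries, 12.4, 13.1 and 13.1 CPM in MyoD libraries and 16.1, 13.1 and 13.2 CPM in MEF libraries, and every F/R/C value was below every other value. Summed over all its transcripts, Gins2 thus fell (log2 fold change -1.34 ± 0.21 SE, adjusted p = 0.00194) against MEF and against MyoD (-1.20 ± 0.21 SE, adjusted p = 0.00388), and both calls held in every alternative run. Gins1, the other GINS gene listed, had a log2 fold change of 0.69 ± 0.40 (SE, adjusted p = 0.207) against MEF. On average, 56.0% of Gins2 counts in F/R/C, 40.3% in MyoD and 46.9% in MEF libraries were assigned to its protein-coding transcript, the rest to transcripts annotated as non-coding or with a retained intron. This share ran from 47.4% to 68.5% in F/R/C, 30.9% to 58.4% in MyoD and 34.4% to 57.2% in MEF libraries. The fall is that of the summed counts, and the coding transcript was not tested alone. Cdt1 and Gins2 both overlap the annotated gene Gm20388, Cdt1 on the same strand and Gins2 on the other. Gins2 also overlaps Gse1 on the other strand, and the sources used here do not give whether counting used strand. Gm20388 had 4332, 4031 and 2905 counts in F/R/C, 6721, 6083 and 5950 in MyoD and 4786, 6292 and 6470 in MEF libraries, and its part in the Cdt1 and Gins2 results was not tested.

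At the fork and in nucleotide supply, 1 gene passed the test in each comparison. Pcna, the sliding clamp of the polymerases, had 49.1, 47.6 and 60.2 CPM in F/R/C libraries, 58.2, 49.6 and 46.1 CPM in MyoD libraries and 74.6, 51.7 and 43.4 CPM in MEF libraries. The groups overlapped, and the 95% interval of its log2 fold change against MEF, -0.62 to 0.40, was among the narrowest of the list. Rrm1, the large subunit of ribonucleotide reductase, had 61.7, 54.7 and 86.9 CPM in F/R/C libraries, 41.4, 42.3 and 40.6 CPM in MyoD libraries and 59.7, 43.4 and 52.8 CPM in MEF libraries. All F/R/C values exceeded all MyoD values, but F/R/C replicate 2 was below MEF replicate 1. Its rise over MyoD (log2 fold change 0.71 ± 0.21 SE, adjusted p = 0.0294) was lost in 10 of 18 alternatives, at adjusted p-values of 0.0574 to 0.130, and against MEF it was 0.38 ± 0.21 (SE, adjusted p = 0.176). Rrm2, the small subunit, had 38.4, 34.8 and 37.4 CPM in F/R/C libraries, 34.2, 39.99 and 55.7 CPM in MyoD libraries and 42.7, 34.1 and 21.1 CPM in MEF libraries, with overlapping groups. Tyms, which makes the thymidine nucleotide, had 10.4, 6.15 and 8.69 CPM in F/R/C libraries, 13.1, 12.4 and 14.4 CPM in MyoD libraries and 17.5, 11.9 and 21.4 CPM in MEF libraries. F/R/C values were below all others, and the fall against MEF was -1.01 ± 0.29 (SE, adjusted p = 0.0245) on the log2 scale, a call that ended in 5 of 18 alternatives, among them leaving out MEF replicate 3 (adjusted p = 0.0659), F/R/C replicate 2 (0.0795) or F/R/C replicate 3 (0.0572). Less than 50% of Tyms counts were assigned to protein-coding transcripts in each group's mean (43.4% in F/R/C, 43.9% in MyoD and 37.1% in MEF), as for Gins2 in MyoD and MEF libraries. The remaining replication genes, Mcm3, Mcm5, Mcm7, Mcm10, Cdc45, Gins1, Pola1, Pole and Rfc3, had adjusted p-values of 0.180 (Mcm7 against MyoD) or more in both comparisons.

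**Figure D2:**
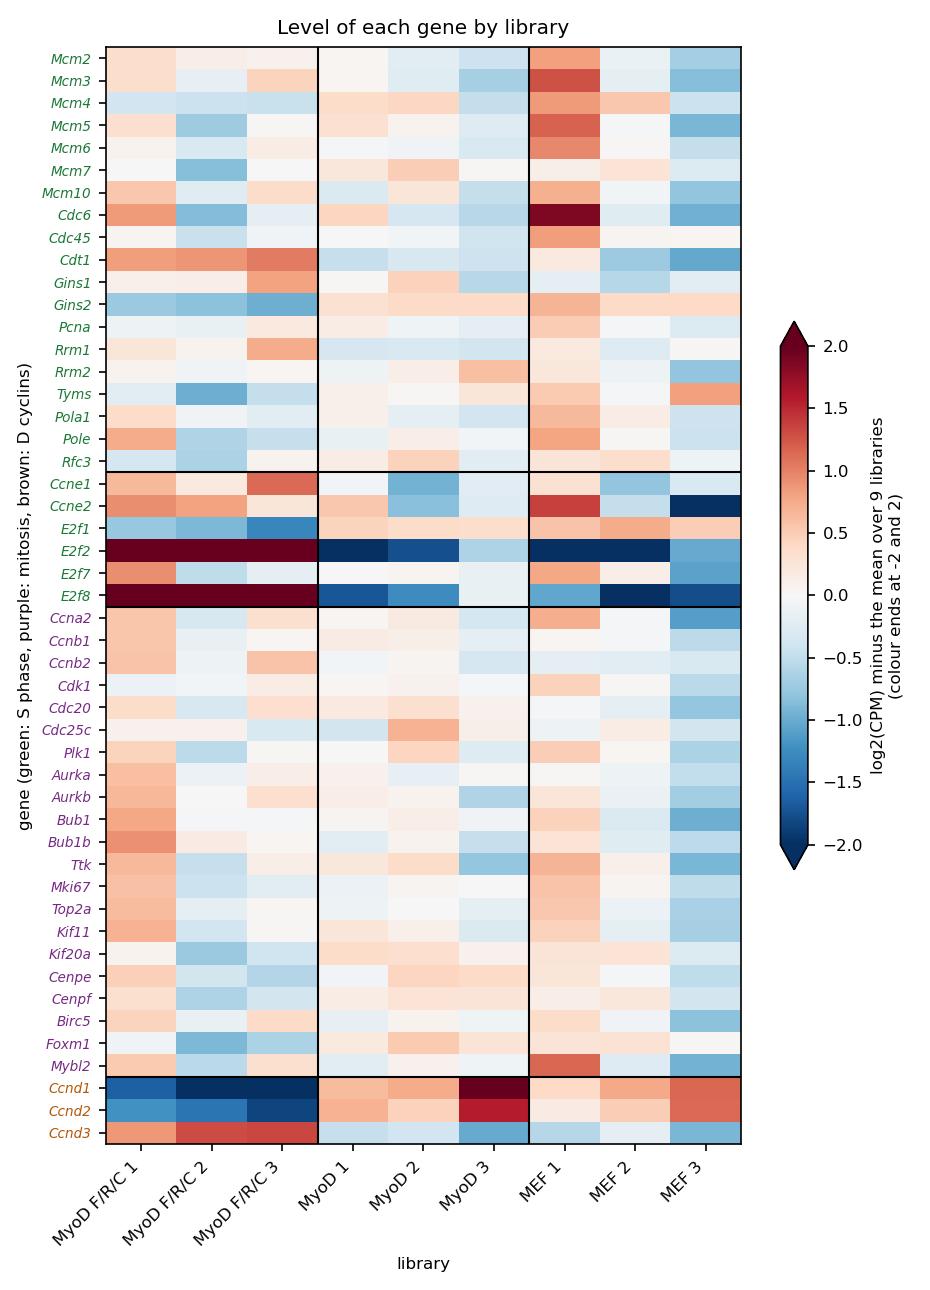
Level of each of the 49 genes in each library, as log2(CPM) minus its mean over the 9 libraries, with F/R/C, MyoD and MEF libraries from left to right. E2f2, E2f8, Cdt1 and Ccnd3 are red in all F/R/C libraries and E2f1, Gins2, Ccnd1 and Ccnd2 blue, while for most other genes MEF replicate 1 is high and MEF replicate 3 low.

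Of the 49 genes, E2f2 and E2f8 showed the largest changes against MEF. Against MyoD, the change of Ccnd1 (log2 fold change -3.63) lay between theirs in size. E2f2 (chr4:136172394-136196057, GRCm38), one of the E2F activators, had 103, 79.95 and 86.2 CPM in F/R/C libraries, 0.627, 1.40 and 3.08 CPM in MyoD libraries and 0.744, 0.362 and 2.35 CPM in MEF libraries. It was at most 3.08 CPM in any library without F/R/C, and the third MyoD and MEF libraries were the highest of their groups. The log2 fold change was 6.29 ± 0.79 (SE, adjusted p = 0.000847) against MEF and 5.72 ± 0.77 (SE, adjusted p = 0.00152) against MyoD. The size moved with the third libraries: it was 7.29 against MEF without MEF replicate 3 and 6.44 against MyoD without MyoD replicate 3. E2f8 (chr7:48866429-48881596), an atypical E2F that represses E2F targets, had 96.9, 75.9 and 66.8 CPM in F/R/C libraries, 3.71, 5.06 and 10.97 CPM in MyoD libraries and 5.91, 2.70 and 3.55 CPM in MEF libraries. All F/R/C libraries were far above the rest, of which MyoD replicate 3 was the highest. The log2 fold change of E2f8 was 4.30 ± 0.48 (SE, adjusted p = 0.000572) against MEF and 3.60 ± 0.47 (SE, adjusted p = 0.00134) against MyoD. E2f7, the other atypical repressor, had 7.18, 2.64 and 3.31 CPM in F/R/C libraries, 3.80, 3.93 and 3.42 CPM in MyoD libraries and 6.42, 4.15 and 1.80 CPM in MEF libraries, with groups that overlapped throughout, and a log2 fold change of 0.09 ± 0.52 (SE, adjusted p = 0.91) against MEF.

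E2f1 (chr2:154559407-154569892), an activator of S phase entry, fell in the same libraries. Its values were 22.9, 20.7 and 15.8 CPM in F/R/C libraries, 52.6, 50.04 and 49.4 CPM in MyoD libraries and 57.4, 65.1 and 54.8 CPM in MEF libraries, with no F/R/C value above 22.9 CPM and no other value under 49.4 CPM. On the log2 scale E2f1 changed by -1.58 ± 0.18 (SE, adjusted p = 0.000601) against MEF and -1.35 ± 0.18 (SE, adjusted p = 0.00145) against MyoD. The gene E2f3, the third activator and not among the 49, had a log2 fold change of 0.23 ± 0.24 (SE, adjusted p = 0.482) against MEF. On the TPM scale, which accounts for transcript length, E2f2 made up 63.1%, 59.7% and 62.5% of the summed level of E2f1, E2f2 and E2f3 in F/R/C libraries, 0.469%, 1.15% and 2.27% in MyoD libraries and 0.495%, 0.253% and 2.40% in MEF libraries. The share of E2f1 was 16.4% to 18.1% in F/R/C, 65.7% to 73.5% in MyoD and 69.1% to 81.1% in MEF libraries. E2f8 made up 94.0% to 96.3% of the summed TPM of E2f7 and E2f8 in F/R/C, 49.04% to 76.0% in MyoD and 38.3% to 73.8% in MEF libraries. Nearly all counts of E2f2 (97.7% in F/R/C) and E2f8 (99.6%) were assigned to protein-coding transcripts.

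The E-type cyclins activate the kinase that fires origins. Ccne1 had 40.5, 29.4 and 56.3 CPM in F/R/C libraries, 24.8, 13.4 and 22.3 CPM in MyoD libraries and 31.9, 14.9 and 20.9 CPM in MEF libraries. All F/R/C values exceeded all MyoD values, but MEF replicate 1 lay above F/R/C replicate 2. Its differences on the log2 scale were 0.90 ± 0.36 (SE, adjusted p = 0.0811) against MEF and 1.06 ± 0.36 (SE, adjusted p = 0.0518) against MyoD, neither past the threshold, but with replicate numbers entered as a block the rise over MEF passed it (0.92, adjusted p = 0.0145). Ccne2 had 7.89, 7.20 and 4.90 CPM in F/R/C libraries, 5.997, 2.30 and 3.46 CPM in MyoD libraries and 10.6, 2.98 and 0.830 CPM in MEF libraries. Its level in MEF replicate 1 was 12.8 times that in MEF replicate 3, the widest spread of the S phase list in any group, and its interval against MEF ran from -1.27 to 2.22.

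**Figure D3:**
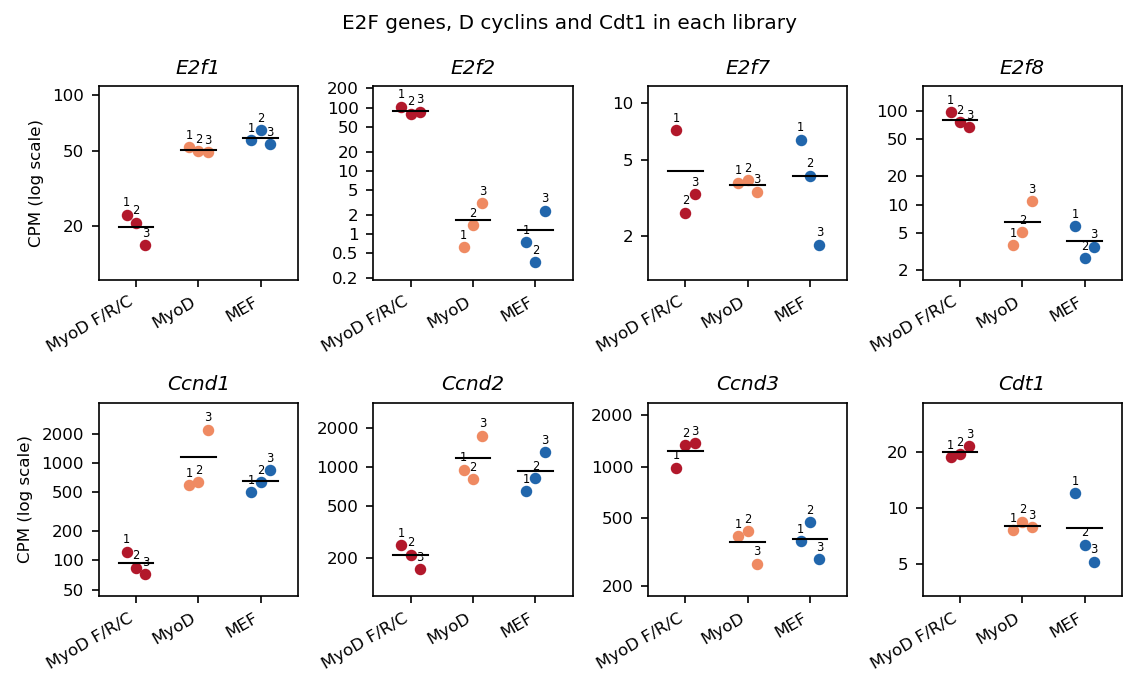
CPM of E2f1, E2f2, E2f7, E2f8, Ccnd1, Ccnd2, Ccnd3 and Cdt1 in each library on log axes that differ between panels; points carry the replicate number and bars are group means (n = 3). F/R/C libraries lie apart from all others for every gene shown but E2f7.

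The 3 D cyclins, which bind the kinases that phosphorylate the retinoblastoma protein, changed in opposite directions with F/R/C. Ccnd1 (chr7:144929931-144939925, GRCm38) had 123, 83.6 and 72.5 CPM in F/R/C libraries, 589.9, 641 and 2218 CPM in MyoD libraries and 501, 642 and 846 CPM in MEF libraries. F/R/C libraries were far below the rest and MyoD replicate 3 far above it. Ccnd1 had a log2 fold change of -2.83 ± 0.55 (SE, adjusted p = 0.00479) against MEF and -3.63 ± 0.57 (SE, adjusted p = 0.00266) against MyoD, and against MyoD it was -2.74 (adjusted p = 0.00161) without MyoD replicate 3. Ccnd2 (chr6:127125162-127152193) had 252, 213 and 164 CPM in F/R/C libraries, 952, 807 and 1733 CPM in MyoD libraries and 654, 824 and 1292 CPM in MEF libraries, with the same order of groups and again the highest value in MyoD replicate 3. Its log2 fold change was -2.14 ± 0.39 (SE, adjusted p = 0.00358) against MEF and -2.47 ± 0.39 (SE, adjusted p = 0.00279) against MyoD. Ccnd3 (chr17:47505051-47599691) had 988, 1343 and 1371 CPM in F/R/C libraries, 393, 417 and 270.2 CPM in MyoD libraries and 367, 475 and 287 CPM in MEF libraries. Every F/R/C library was above every other, and the third libraries were the lowest of the MyoD and MEF groups. The log2 fold change of Ccnd3 was 1.71 ± 0.28 (SE, adjusted p = 0.0025) against MEF and 1.78 ± 0.28 (SE, adjusted p = 0.00288) against MyoD. Of the summed D cyclin TPM, Ccnd3 took 86.4%, 92.4% and 94.3% in F/R/C libraries, 43.1%, 45.3% and 15.8% in MyoD libraries and 45.4%, 47.6% and 28.6% in MEF libraries. All 3 calls held in both comparisons in every alternative run.

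Of the mitosis genes, none passed the test against MEF and 1, Foxm1, passed it against MyoD. Cdk1, the kinase that drives mitosis, had 22.2, 23.2 and 26.6 CPM in F/R/C libraries, 24.6, 25.3 and 23.3 CPM in MyoD libraries and 32.9, 24.4 and 16.6 CPM in MEF libraries. The F/R/C values lay within the MEF range, and the log2 fold change was -0.04 ± 0.25 (SE, adjusted p = 0.916) against MEF. Of the genes of its partners, the cyclin A gene Ccna2 had 21.6, 11.8 and 18.2 CPM in F/R/C libraries, 15.1, 16.7 and 11.4 CPM in MyoD libraries and 24.3, 14.3 and 6.83 CPM in MEF libraries. The cyclin B gene Ccnb1 had 19.98, 12.2 and 13.9 CPM in F/R/C libraries, 15.2, 14.8 and 12.03 CPM in MyoD libraries and 14, 13.2 and 9.46 CPM in MEF libraries. The groups of both overlapped. Ccnb2, the second B cyclin, had 10.4, 6.52 and 10.4 CPM in F/R/C libraries, 6.76, 7.29 and 5.58 CPM in MyoD libraries and 6.09, 6.08 and 5.67 CPM in MEF libraries. All F/R/C values were above all MEF values, and this was the largest positive log2 fold change of the mitosis list against MEF (0.62 ± 0.27 SE, adjusted p = 0.106), past the threshold only with DESeq2 (adjusted p = 0.043). Plk1, a kinase of spindle assembly and mitotic entry, had 11.8, 5.97 and 8.74 CPM in F/R/C libraries, 8.55, 11.6 and 7.22 CPM in MyoD libraries and 12.1, 8.86 and 5.54 CPM in MEF libraries, with nearly equal group means of 8.83 ± 2.91 CPM in F/R/C, 9.13 ± 2.26 CPM in MyoD and 8.84 ± 3.30 CPM in MEF libraries (SD, n = 3).

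Markers often used to score proliferation did not pass the test either. Mki67, the gene of a nuclear protein of cycling cells, had 36.97, 18.3 and 21.3 CPM in F/R/C libraries, 22.6, 25.6 and 24.7 CPM in MyoD libraries and 36.8, 25.6 and 17.4 CPM in MEF libraries. F/R/C replicate 1 and MEF replicate 1 were level, and the log2 fold change was -0.06 ± 0.33 (SE, adjusted p = 0.905) against MEF, with a 95% interval of -0.81 to 0.69. Top2a, the topoisomerase that untangles sister chromosomes, had 60.98, 34.7 and 40.6 CPM in F/R/C libraries, 36.5, 39.7 and 34.3 CPM in MyoD libraries and 57.3, 36.1 and 25.2 CPM in MEF libraries, with replicate 1 highest in the F/R/C and MEF groups. Aurkb, the kinase of the chromosomal passenger complex, had 11.6, 7.29 and 9.27 CPM in F/R/C libraries, 8.06, 7.74 and 4.86 CPM in MyoD libraries and 8.65, 6.68 and 4.52 CPM in MEF libraries, and its groups overlapped. For the remaining genes of the checkpoint (Bub1, Bub1b, Ttk), spindle and kinetochore (Kif11, Kif20a, Cenpe, Cenpf, Birc5) and mitotic entry and exit (Cdc25c, Aurka, Cdc20), log2 fold changes against MEF lay between -0.43 and 0.55. Over all 21 genes the 95% intervals against MEF stayed inside -1.30 to 1.38, and 8 of the 21 intervals lay between -1 and 1. The median log2 fold change of the 21 genes was 0.18 against MEF and 0.14 against MyoD, where the medians of all genes were -0.04 and -0.02.

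Foxm1 and Mybl2 encode transcription factors that raise the genes of mitosis. Foxm1 had 17.3, 9.80 and 11.8 CPM in F/R/C libraries, 20.9, 26.3 and 22.03 CPM in MyoD libraries and 21.9, 22.3 and 18.5 CPM in MEF libraries. Every F/R/C value was under every other value. The log2 fold change was -0.69 ± 0.24 (SE, adjusted p = 0.0533) against MEF and -0.83 ± 0.24 (SE, adjusted p = 0.03) against MyoD, so that Foxm1 was the mitosis gene called against MyoD. That call was lost without F/R/C replicate 2 or 3 or MyoD replicate 1 or 2 (adjusted p 0.0537 to 0.0919), and against MEF Foxm1 passed the threshold without F/R/C replicate 1 (adjusted p = 0.018), with DESeq2 (0.0402) and with genes of an average CPM of at least 1 (0.0476). Foxm1 overlaps Tex52 and Gm44596 on the same strand. Mybl2 had 4.87, 2.32 and 4.23 CPM in F/R/C libraries, 2.91, 3.59 and 3.17 CPM in MyoD libraries and 7.49, 2.82 and 1.75 CPM in MEF libraries, highest in MEF replicate 1, with a log2 fold change of -0.08 ± 0.54 (SE, adjusted p = 0.922) against MEF.

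**Figure D4:**
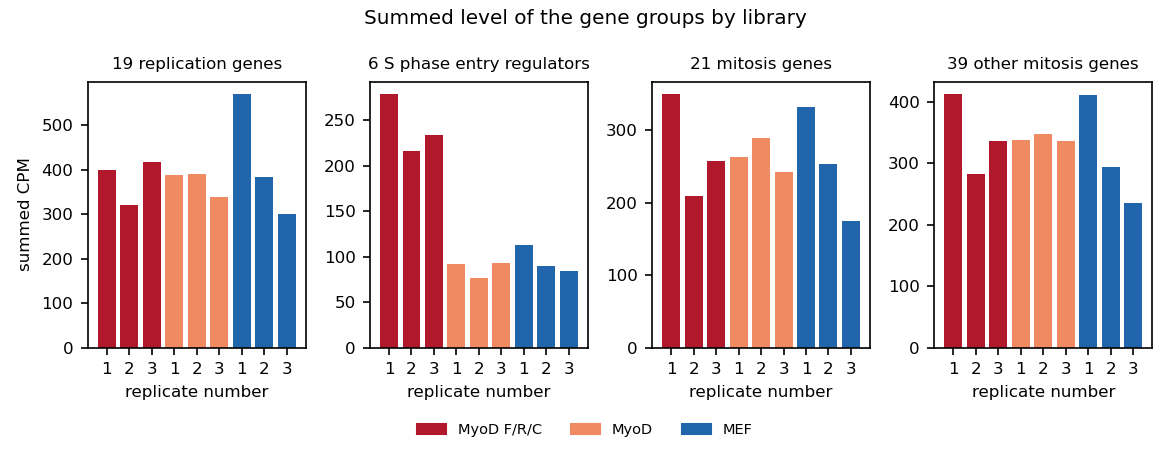
Summed CPM of the 19 replication genes, 6 S phase entry regulators, 21 mitosis genes and 39 other mitosis genes in each library; colours mark the groups and numbers the replicates. The entry regulators reached 216 to 279 CPM in F/R/C libraries and at most 113 CPM elsewhere, while the other sums overlapped between groups.

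As a sum, the 21 mitosis genes had 349, 208 and 258 CPM in F/R/C libraries, 263, 288 and 242 CPM in MyoD libraries and 332, 252 and 175 CPM in MEF libraries. The 19 replication genes had 399, 320 and 417 CPM in F/R/C, 388, 389 and 339 CPM in MyoD and 569, 383 and 301 CPM in MEF libraries. Both sums overlapped between all groups and spread most within the MEF group. The 6 entry regulators (Ccne1, Ccne2, E2f1, E2f2, E2f7 and E2f8) had 279, 216 and 233 CPM in F/R/C libraries, 91.6, 76.1 and 92.6 CPM in MyoD libraries and 113, 90.2 and 84.2 CPM in MEF libraries. The last sum stood apart in F/R/C libraries through E2f2 and E2f8, since the other 4 regulators fell or did not pass the test.

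MyoD alone gave no call among the 49 genes. None of them passed the test between MyoD and MEF libraries, nor did any in the 18 alternatives run. The main fit, which leaves replicate numbers out, called 0% of all genes (732 of 15714 had an unadjusted p under 0.05). None of the 49 had an unadjusted p under 0.05 in it. That 0% depended on the fit. DESeq2 called 171 genes (1.1%), and edgeR called 13 once libraries were blocked by number and 11 with no filter. Without MEF replicate 3, the MEF library with sarcomere transcripts, 161 genes passed, 158 of them higher in MyoD. The median log2 fold change in the main fit was -0.22 for the S phase genes and 0.10 for the mitosis genes. Its intervals ran from -2.56 to 2.13 and from -1.54 to 1.16, so a 2-fold difference, 1 on the log2 scale, lay inside the interval of many genes. These intervals also hold spread that MyoD and MEF libraries of equal number shared (correlation 0.632 to 0.729), and intervals from the blocked fit are not given here. Libraries of the 2 groups did not overlap for 3 of 25 S phase genes, 1 of 21 mitosis genes and 0 of 3 D cyclins, where this was so for 7.52% of all genes.

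Inside the MEF group the libraries kept much the same order for most of these genes. Each group has a single library per replicate number, so such orders compare single libraries and cannot show an effect of the number. Genes of a list are not independent repeats, and the orders over all genes were not counted. MEF replicate 1 was the highest MEF library for 20 of 25 S phase genes and 17 of 21 mitosis genes, and MEF replicate 3 the lowest for 18 and 21. In the MyoD group replicate 3 was lowest for 16 S phase genes and 13 mitosis genes, but replicate 2 was highest for 16 of the mitosis genes. In the F/R/C group replicate 1 was highest for 17 S phase genes and 18 mitosis genes, and replicate 2 lowest for 16 and 17. Replicate 1 was thus the high library in the F/R/C and MEF groups, while the low library was replicate 2 in F/R/C and replicate 3 in MyoD and MEF. The ratio of the highest to the lowest library of a group had a median over the S phase genes of 1.52 in F/R/C, 1.39 in MyoD and 2.2 in MEF, and over the mitosis genes of 1.76 in F/R/C, 1.26 in MyoD and 1.91 in MEF. MEF replicate 3, low in these genes, was the MEF library with sarcomere transcripts, and MEF replicate 1, high in them, had the most fibroblast transcripts; their part in the spread was not tested. In a joint test of the replicate number beside the group, none of the 49 genes passed, where 0.165% of all genes did. An unadjusted p under 0.05 was found for 3 of the 49 genes and for 2939 of all 15714 genes tested. DESeq2 called Cdc6 and Ccne1 (adjusted p = 0.0143 and 0.0405), where it called 11.1% of all genes. Among MyoD and MEF libraries alone Mcm4 and Ccne1 passed (0.0261 and 0.0427), where 15.8% of all genes did.

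Other genes of replication and mitosis were tested in the same fit. Of 35 further replication genes, 4 were higher in F/R/C than in MEF libraries (Orc2, Orc5, Pola2 and Pold2) and 1 lower (Prim2, a primase subunit), and of 39 further mitosis genes 1 was higher (Ube2c) and none lower, 14.3% and 2.56% of these lists, where 37.6% of all genes passed. Ube2c, the ubiquitin-conjugating enzyme of the anaphase-promoting complex, had 20.3, 14.95 and 22.7 CPM in F/R/C libraries, 9.26, 10.2 and 11.5 CPM in MyoD libraries and 10.8, 9.66 and 7.34 CPM in MEF libraries, with all F/R/C values above the rest (1.06 ± 0.25 SE, adjusted p = 0.0109 on the log2 scale against MEF). Orc2, a subunit of the origin recognition complex, had 43.3, 41.9 and 59.2 CPM in F/R/C libraries, 27.03, 21.3 and 30.8 CPM in MyoD libraries and 27.03, 20.6 and 27.4 CPM in MEF libraries and a log2 fold change of 0.95 ± 0.22 (SE, adjusted p = 0.0109) against MEF. Against MyoD the counts were 4 higher and 2 lower (Prim2 and Tk1) of the replication genes, and 1 higher (Ube2c) and 1 lower (Anln) of the mitosis genes, 17.1% and 5.13% of the lists, where 33.9% of all genes passed. Of 14 genes of the anaphase-promoting complex and its regulators (Fzr1 and Fbxo5 among them), Anapc7 was higher and Anapc1 lower against MEF. These were 14.3% of the list, where 37.6% of all genes passed. None of the 14 passed the test against MyoD, where 33.9% of all genes passed. An unadjusted p under 0.05 was found for 2 of the 14, and for 7142 of all 15714 genes.

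Regulators that act on E2F and on the cyclin-dependent kinases were tested likewise. Of 12 E2F partners and DREAM subunits, 3 were higher (E2f4, Tfdp2 and Rbbp4) and 1 lower (Mybl1) against both MEF and MyoD. These 33.3% of the list were close to the share of all genes, 37.6% against MEF and 33.9% against MyoD. E2f4, the E2F that carries the DREAM complex in resting cells, had 118, 140.0 and 136 CPM in F/R/C libraries, 44.6, 38.8 and 53.3 CPM in MyoD libraries and 56.3, 40.8 and 50.8 CPM in MEF libraries. Every F/R/C value was above every other, with a log2 fold change of 1.41 ± 0.19 (SE, adjusted p = 0.0011) against MEF. Mybl1 fell, with a log2 fold change of -1.74 ± 0.30 (SE, adjusted p = 0.00299) against MEF and -2.41 ± 0.31 (SE, adjusted p = 0.00131) against MyoD. Of 10 inhibitors of cyclin-dependent kinases and retinoblastoma family genes, 4 were higher (Cdkn1a, Cdkn1c, Cdkn2d and Rb1) and 2 lower (Cdkn2b and Rbl2) in both comparisons, 60% of the list. Against MEF, 5 of the 10 log2 fold changes were positive and 5 negative, with a median of 0.12. Cdkn2b had a log2 fold change of -1.07 ± 0.21 (SE, adjusted p = 0.00559) against MEF and -1.36 ± 0.22 (SE, adjusted p = 0.00282) against MyoD. Cdkn1c, the gene of p57, had 1111, 902 and 1323 CPM in F/R/C libraries, 9.35, 23.8 and 15.7 CPM in MyoD libraries and 14.6, 55.7 and 60.7 CPM in MEF libraries and a log2 fold change of 4.67 ± 0.60 (SE, adjusted p = 0.000895) against MEF. Rb1, the retinoblastoma protein gene, had 125, 127 and 131 CPM in F/R/C libraries, 17.3, 31.7 and 58.9 CPM in MyoD libraries and 17.1, 21.9 and 37.4 CPM in MEF libraries, highest in the third libraries among MyoD and MEF, with a log2 fold change of 2.33 ± 0.45 (SE, adjusted p = 0.00469) against MEF. None of these genes passed the test between MyoD and MEF libraries.

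Levels of different genes were compared per length, as TPM. These TPM values carry no TMM factor, so they serve to order genes, and differences between groups are those given from counts above. The median TPM of the mitosis genes was 6.54 in F/R/C, 8.12 in MyoD and 7.87 in MEF libraries, and that of the S phase genes was 12.6 TPM in F/R/C, 11.2 TPM in MyoD and 15.7 TPM in MEF libraries. Ccnd3 had the highest mean TPM of the 49 in F/R/C libraries (1066 ± 198 TPM, against 457 ± 132 TPM in MyoD and 452 ± 121 TPM in MEF libraries; SD, n = 3). E2f2 ranked 5 of 49 in F/R/C libraries and last in MyoD and MEF libraries, at 39.9 ± 12.2 TPM in F/R/C, 0.669 ± 0.448 TPM in MyoD and 0.578 ± 0.626 TPM in MEF libraries. E2f1 ranked 23 of 49 in F/R/C, 8 in MyoD and 6 in MEF libraries. Cdk1 was the most abundant mitosis gene in all groups, at 30.8 ± 3.31 TPM in F/R/C, 40.4 ± 4.03 TPM in MyoD and 42.4 ± 15.4 TPM in MEF libraries.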

How the data were processed

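RNA was isolated with RNeasy and libraries made with a stranded TruSeq mRNA kit, per the labels' protocols. Per the submitters' processing notes, bcl2fastq 2.19, Trimmomatic 0.36, kallisto 0.44, edgeR 3.28 and the build GRCm38.p6 were used. For the annotation release, the kallisto options and any use of strand in counting, the sources used here name nothing. Per library, the authors deposited a table with the estimated count and the TPM of 121843 transcripts, as kallisto's output names them per the file headers. Here estimated counts were summed per gene with GENCODE M21 (GRCm38) and rounded to whole counts; 739 unmatched transcripts, 0.200% to 0.494% of a library's counts, were left out. TPM was summed per gene to compare genes.

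The test was edgeR 4.0.16 in R 4.3.3 (genes kept by filterByExpr, minimum count 10 and minimum total 15; TMM; quasi-likelihood F test, two-sided; 1 fit of 9 libraries with a mean per group; Benjamini-Hochberg over 15714 genes; threshold 0.05). SE is the absolute log2 fold change over the square root of F. The replicate number was tested jointly in an additive fit. With 3 libraries against 3, an exact permutation test cannot give a two-sided p under 0.1. The code was checked on simulated counts.

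The 49 genes, the other lists and the promoter motifs were chosen with earlier results of these data known. Values in every library were given for 25 members listed by name, for members called against the direction of most in their class and for the extremes of a class; Mcm4 was added after its values were seen. Of each other list, genes were eligible by smallest p, up to 3 moving with the majority and 1 moving against it; the calls of a list were also named. Libraries of equal replicate number deviated together (correlation 0.632 to 0.729 between MyoD and MEF, 0.101 to 0.151 between F/R/C and MEF), above the limit of 0.1 taken for pairing. Alternatives were DESeq2 1.42.0, its size factors, library totals, no filter, an average CPM of at least 1, 2 groups alone, counts scaled from TPM, the replicate block, and leaving out each library.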

Additional observations from a re-analysis of the deposited data

How the results depend on the processing

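Over 18 alternatives a comparison (17 for the replicate number), the D cyclin count stayed at 3 in F/R/C against MEF and against MyoD. The S phase count was 5 to 7 against MEF and 4 (counts scaled from TPM) to 8 against MyoD. Calls over all genes moved too, against MEF from 5495 of 26823 (no filter) to 6875 of 15714 (replicate block). Against MyoD they went from 4807 of 26823 to 6334 of 15714 in the same settings. The mitosis count of 0 against MEF became 2 with DESeq2 (Ccnb2 and Foxm1) and 1 with an average CPM of at least 1, and was 0 to 1 with a library left out (1 without F/R/C replicate 1). That of 1 against MyoD became 0 with counts scaled from TPM, 0 without the third library of every group, a setting chosen after seeing the data, and 0 to 1 with a library left out. The S phase count for the replicate number, 0, became 2 with DESeq2 (11.1% of all genes called), 2 with MyoD and MEF libraries alone (15.8%), and 0 to 1 with a library left out. In sum, 201 of 213 counts stayed within 1.5 times the value reported, and the cause of the other 12 was not tested. This share includes the counts of 0 for MyoD against MEF and for the replicate number, and D cyclin counts that could not exceed 3. It therefore says little about single genes. Against MyoD, the call of Rrm1 held in 8 of 18 alternatives and that of Foxm1 in 12 of 18.

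With the replicate number as a block, the S phase counts were 7 against MEF (Ccne1 added) and 8 against MyoD (Ccne1 and Tyms added, adjusted p = 0.00904 and 0.0468), and no other call among the 49 genes changed. Calls over all genes rose as well, to 6875 of 15714 against MEF and 6334 of 15714 against MyoD (5916 and 5327 in the main fit). Equal numbers of MyoD and F/R/C correlated at 0.0837, 0.119 and 0.164, not all above the limit of 0.1; each library correlated best with its own number. Without the third libraries, Cdt1 (0.0633) and Tyms (0.122) lost their calls against MEF, Mcm4 gained them (0.00706 against MEF, 0.0207 against MyoD), and the log2 fold change of E2f2 was 7.38 against MEF and 6.47 against MyoD, that of E2f8 against MyoD 4.29 and that of Ccnd1 against MyoD -2.58. With library totals as the scaling, the median log2 fold change of all genes in F/R/C against MyoD was -0.20, against -0.02 with TMM. Depth limits the low genes: 3 counts correspond to 0.113 to 0.144 CPM.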
